A study of Mus musculus with 12 samples.

Results

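The genes described are 10 members of the Fanconi anaemia pathway, *Fanca*, *Fancb*, *Fancc*, *Fancd2*, *Fance*, *Fancf*, *Fancg*, *Fanci*, *Fancl* and *Fancm*, of the 21859 genes in the deposited table. They were taken by gene symbol around *Fancb*, which was itself chosen from its measured rise in cryptorchid testes, so the values of *Fancb* are given as a description with no test. The other 9 members were taken for their place in the same pathway, and the comparison asks whether they rose with *Fancb*. All 10 passed the filter on low values that left 16932 genes (log2 of the mean RPM above -1, where RPM is the read number scaled to library totals of 1e+06 reads).

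The cells came from male mice, aged 8 to 10 weeks at surgery, carrying a GFRa1-EGFP reporter, in which EGFP follows the gene of the GDNF receptor GFRa1, and were sorted as GFRa1-EGFP positive and KIT negative. The cryptorchid group, labelled Cryptorchid in the genotype field, held 7 libraries from left testes that had been fixed to the abdominal wall, and the control group, labelled WT, held 5 libraries from testes left in the scrotum of mice with the same one-sided operation. Both were collected 10 days after surgery, and the temperature at which the tissue was digested differed along with the condition. Libraries were made by the Smart-seq2 method from little RNA, with PCR of whole cDNAs and no molecular identifiers. The labels do not tie libraries to mice, so P-values measure only the spread between these libraries.

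The Fanconi anaemia pathway repairs DNA interstrand crosslinks, lesions that tie the strands of the double helix together and block replication. FANCM anchors a nuclear core complex to the damaged DNA. Within the complex, FANCB, FANCL and FAAP100 form the catalytic module with FANCL as the ubiquitin ligase, FANCA, FANCG and FAAP20 form a second module, and FANCC, FANCE and FANCF a further one that holds the substrate. The complex attaches 1 ubiquitin to FANCD2 and FANCI, which then clamp the DNA and open the way to incision, translesion synthesis and homologous recombination. Mice that lack pathway members lose germ cells, and *Fancb* is the core member on the X chromosome.

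Reads on genes ran from 4511730 to 24345368 in the control libraries and from 3306771 to 20027902 in the cryptorchid libraries. Replicates 1 to 3 of both groups, here called set 1 (3 control and 3 cryptorchid libraries), had an excess of even read numbers per gene (53.2 to 60.8%), and the other libraries, set 2 (2 control and 4 cryptorchid), did not (48.2 to 50.5%). The labels name no batch. Markers of undifferentiated spermatogonia were present in both groups, with *Gfra1* at a mean of 7.88 log2 RPM in control and 8.40 in cryptorchid libraries, *Zbtb16* at 8.33 and 8.54 and *Ret* at 8.37 and 8.61. Genes were called by limma at 2-fold and an unadjusted P-value of 0.05, which took 3.56% of all genes as higher and 2.36% as lower. By this rule 0 of the 10 listed markers were called. Of the 10, 4 had a log2 difference above 0 and 6 below, with a median of -0.27, the lowest being *Utf1* (-1.14, limma, adjusted P = 0.657) and *Nanos3* (-0.97, limma, adjusted P = 0.483). Of 7 spermatid markers, 3 were called lower, where 2.36% of all genes were. These were *Prm1* (log2 difference -2.40, limma, adjusted P = 0.359), *Prm2* (-3.73, limma, adjusted P = 0.134) and *Odf1* (-2.70, limma, adjusted P = 0.359). The 7 markers ran from -3.73 to -0.55 (*Acrv1*), with 0 above 0. Their list summed to 490 to 2666 RPM in control and 14.6 to 1789 RPM in cryptorchid libraries, and its part in the results was not tested. As these are bulk samples, fewer cells of a type and less RNA per cell cannot be told apart.

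*Fancb* (ENSMUSG00000047757.16) lies on the forward strand of chrX:164980592-164997272 in GRCm38, with 2983 bases of annotated exon that overlap no other gene's exons. In the 5 control libraries it was at 1.12, 0.91, 1.17, 1.13 and 0.63 log2 RPM. In the 7 cryptorchid libraries it was at 3.09, 3.12, 3.45, 4.09, 3.27, 4.73 and 3.24 log2 RPM. The groups did not overlap, with a gap of 1.92 log2 units between the highest control and the lowest cryptorchid library. Its mean went from 0.99 ± 0.225 log2 RPM (SD, n = 5) to 3.57 ± 0.615 (SD, n = 7), a log2 difference of 2.58 or 5.97-fold. The difference was 2.15 within set 1 and 2.95 within set 2. Cryptorchid replicates 6 and 4, both in set 2, held the highest levels, and without replicate 6 the difference was 2.39. Replicate 6 also held the most spermatid marker RNA of the cryptorchid group, 1789 RPM, which is within the control range. Cryptorchid replicate 4 came next in both, with 649 RPM at a *Fancb* level of 4.09 log2 RPM. Cryptorchid replicates 1 and 2 were lowest in both, with 92.4 and 14.6 RPM at 3.09 and 3.12. In the control group replicate 5 held the most spermatid marker RNA, 2666 RPM, at the lowest *Fancb* level, 0.63. The relation of the 2 levels was not tested.

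These levels rest on few reads in the control libraries, 53, 54, 23, 12 and 7, against 190, 97, 92, 79, 33, 121 and 44 reads in the cryptorchid libraries. Mean RPM was 2.01 in control and 13.0 in cryptorchid libraries. Of all genes tested, 94 (0.555%) had every cryptorchid library above every control library, and *Fancb* was the 1 member among them, as its choice implied.

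**Figure D1:**
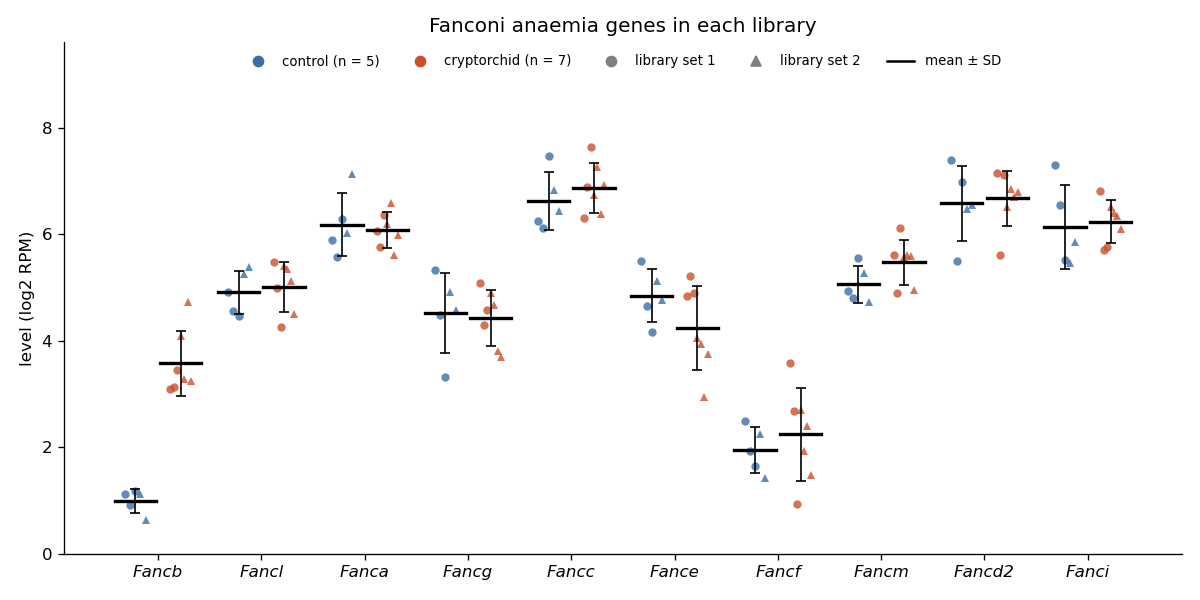
Level of each of the 10 genes in log2 RPM (y axis) in 5 control and 7 cryptorchid libraries, with 1 point per library, circles for set 1, triangles for set 2, and bars for mean ± SD. *Fancb* is the member whose groups are apart, from 0.63 to 1.17 in control and from 3.09 to 4.73 log2 RPM in cryptorchid libraries.

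Levels of different genes were compared per kilobase of exon. On that scale *Fancb* was the lowest of the 10 members in control cells at -0.58 log2 RPM per kb. The order above it was *Fancf* at 1.19, *Fancm* at 1.67, *Fancg* at 2.60, *Fanca* at 3.04, *Fancl* at 3.16, *Fance* at 3.17, *Fancc* at 3.56, *Fancd2* at 3.59 and *Fanci* at 3.60. From *Fancg* to *Fanci*, neighbours in this order differed by less than the SD of either (0.406 to 0.783), while *Fancb* (SD 0.225) stood below *Fancf* (SD 0.436) by more than both. In cryptorchid cells *Fancb* was at a mean of 1.99 log2 RPM per kb (SD 0.615), which placed it 9th of the 10, above *Fancf* (SD 0.876) and below *Fancm* at 2.09 (SD 0.424), and within the spread of both.

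The same shift was seen against the partners of FANCB in the catalytic module. The level of *Fancb* relative to *Fancl*, as a log2 ratio per kilobase, was -3.61, -3.47, -3.11, -3.94 and -4.57 in the control libraries. In the cryptorchid libraries it ran from -2.21 to -0.22 with a median of -1.13, so the groups did not overlap. Relative to *Faap100*, the mean log2 ratio went from -3.61 ± 0.498 (SD, n = 5) to -0.60 ± 0.989 (SD, n = 7). Relative to the mean of the 7 other core members it was -3.21 ± 0.290 and -0.67 ± 0.780, and in cryptorchid replicate 6 alone *Fancb* was above that mean, by 0.85. These ratios carry the values of *Fancb* that chose it and were not tested.

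**Figure D2:**
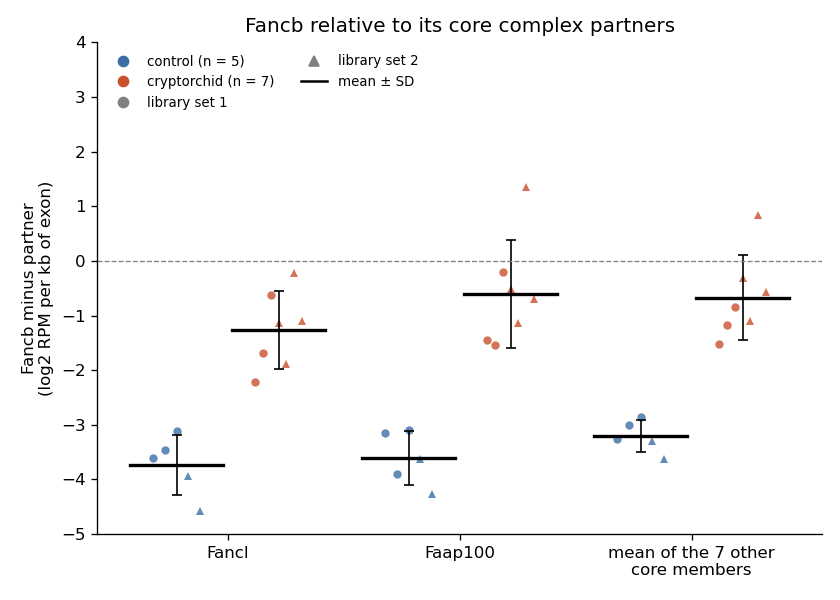
Level of *Fancb* minus that of *Fancl*, *Faap100* or the mean of the 7 other core members, in log2 RPM per kb of exon (y axis), with 1 point per library and bars for mean ± SD. Against the 7 other core members the control libraries sit between -3.62 and -2.86 and the cryptorchid libraries between -1.52 and 0.85.

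A rise like that of *Fancb* was not detected in the other 9 members. With limma at 2-fold and an unadjusted P-value of 0.05, 0 of the 9 were called higher and 0 lower, where 603 of the 16932 genes tested (3.56%) were called higher and 399 (2.36%) lower. After quantile normalization the background was 457 higher and 542 lower. Of the 9, 0 had an unadjusted P-value under 0.05, against 1606 genes or 9.48% of all tested, and 0 had an adjusted P-value under 0.05, against 2 genes or 0.0118%. With a background this low, counts of 0 among 9 genes were close to it. The log2 difference was above 0 for 6 of the 9, against 56.7% of all genes. The median of the 9, 0.10, equalled that of all genes tested to 2 decimals in this fit. In other settings it lay above, as with array weights (0.145 against 0.080), or below, as without cryptorchid replicate 1 (0.018 against 0.090). Within set 1 the median of the 9 was 0.27 and within set 2 it was 0.19.

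Their log2 differences ran from -0.61 to 0.42, with standard errors of 0.282 to 0.572. The highest upper bound of any 95% interval was 1.50, for *Fancf*. No test of the difference between *Fancb* and another member was made, since *Fancb* was chosen for its value. For 6 of the 9 the interval ended below 1 on the log2 scale at both ends, which leaves *Fance*, *Fancf* and *Fancm* with intervals that reach past a 2-fold change.

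In the catalytic module, *Fancl*, the ubiquitin ligase, was at 4.91, 4.55, 4.46, 5.24 and 5.38 log2 RPM in the control libraries. In the cryptorchid libraries it ran from 4.26 to 5.48 with a median of 5.13, and the groups overlapped. The log2 difference was 0.10 with a 95% interval of -0.54 to 0.75 (limma, adjusted P = 0.935), and it turned from 0.27 within set 1 to -0.22 within set 2. *Faap100*, which encodes the remaining subunit of that module, went from 5.41 ± 0.305 to 4.97 ± 0.511 log2 RPM, a log2 difference of -0.43 (SE 0.300, limma, adjusted P = 0.680).

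*Fanca* and *Fancg* encode subunits of the second module. The gene of its further subunit, *Faap20*, had a log2 difference of -0.65 (SE 0.461, limma, adjusted P = 0.690). *Fanca* was at 5.88, 5.56, 6.28, 6.02 and 7.12 log2 RPM in control and between 5.61 and 6.59 (median 6.06) in cryptorchid libraries. Its log2 difference was -0.10 with a 95% interval of -0.69 to 0.50 (limma, adjusted P = 0.935). *Fancg* was at 5.32, 4.48, 3.32, 4.91 and 4.57 log2 RPM in control and between 3.68 and 5.08 (median 4.57) in cryptorchid libraries. Its log2 difference was -0.09 with a 95% interval of -0.89 to 0.71 (limma, adjusted P = 0.958). For both genes the groups overlapped, and the sign turned between the sets, from 0.15 in set 1 to -0.48 in set 2 for *Fanca* and from 0.27 to -0.47 for *Fancg*.

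In the substrate-holding module the 3 genes had differences of both signs. *Fancc* was at 6.25, 6.12, 7.47, 6.83 and 6.43 log2 RPM in control and between 6.31 and 7.64 (median 6.89) in cryptorchid libraries, a log2 difference of 0.25 (95% interval -0.37 to 0.87, limma, adjusted P = 0.823). *Fancf*, a gene of low level, was at 2.49, 1.93, 1.65, 2.24 and 1.41 in control and between 0.93 and 3.58 (median 2.40) in cryptorchid libraries, a log2 difference of 0.29 (95% interval -0.91 to 1.50, limma, adjusted P = 0.902). For *Fancc* 1 cryptorchid library lay above all controls, and for *Fancf* 3 lay above and 1 below them. Within set 1 and set 2 the differences were 0.33 and 0.19 for *Fancc* and 0.37 and 0.30 for *Fancf*. *Fance* was at 5.49, 4.65, 4.16, 5.13 and 4.77 log2 RPM in control and between 2.94 and 5.21 (median 4.06) in cryptorchid libraries. Its 4 cryptorchid libraries of set 2 lay below all 5 control libraries and its 3 of set 1 did not, with a log2 difference of -1.28 within set 2 and 0.22 within set 1. Pooled, the difference of -0.61 had a 95% interval of -1.45 to 0.24 (limma, adjusted P = 0.669).

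*Fancm*, the DNA translocase that anchors the complex, had the highest difference of the 9. It was at 4.92, 4.80, 5.55, 5.26 and 4.73 log2 RPM in control and between 4.89 and 6.11 (median 5.58) in cryptorchid libraries, of which 5 lay above all control libraries. The log2 difference of 0.42 (SE 0.282, 95% interval -0.17 to 1.01) did not pass the test (limma, adjusted P = 0.673). It was of like size in both sets, 0.45 in set 1 and 0.43 in set 2.

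*Fancd2* and *Fanci* encode the pair of proteins that the core complex ubiquitinates. *Fancd2* was at 7.38, 5.49, 6.98, 6.47 and 6.55 log2 RPM in control and between 5.61 and 7.14 (median 6.79) in cryptorchid libraries. *Fanci* was at 7.30, 6.54, 5.52, 5.45 and 5.85 in control and between 5.70 and 6.80 (median 6.33) in cryptorchid libraries. Both overlapped between the groups, and both had a pooled log2 difference of 0.10. The 95% interval was -0.59 to 0.79 for *Fancd2* (limma, adjusted P = 0.946) and -0.58 to 0.78 for *Fanci* (limma, adjusted P = 0.944). Within the sets *Fanci* differed in sign, at -0.36 in set 1 and 0.69 in set 2, and *Fancd2* was at 0.0026 and 0.20.

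**Figure D3:**
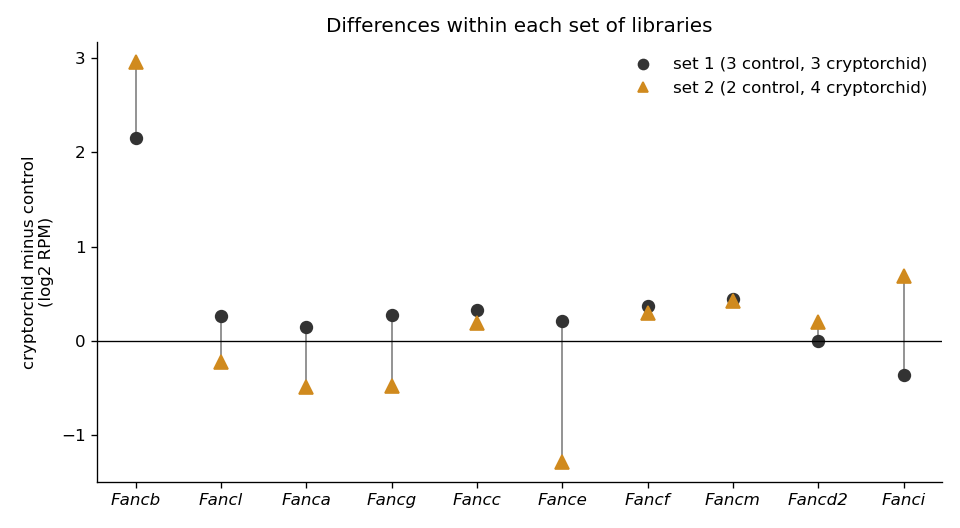
Log2 difference of each gene between cryptorchid and control libraries (y axis), computed within set 1 (3 control, 3 cryptorchid, circles) and within set 2 (2 control, 4 cryptorchid, triangles), with no error since each set holds few libraries. *Fancb* is above 2 in both sets, while *Fance* goes from 0.22 to -1.28.

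The strand used for counting is not stated, and 8 of the 10 members share exon bases with a gene on the opposite strand, *Fancb* and *Fancg* being the exceptions. The largest shares of the member's exons were 16.4% for *Fancc* with *Gm16133*, 16.0% for *Fanci* with *Polg*, 15.0% for *Fancf* with *Gas2*, 13.7% for *Fancl* with *Vrk2* and 10.5% for *Fanca* with *Zfp276*. Reads from these stretches cannot be assigned to 1 gene, and the values of these members are uncertain to that extent.

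Of 32 other genes of the pathway, all of which passed the filter, 0 were called higher and 0 lower, and 2 had an unadjusted P-value under 0.05, which is 6.25% against the background of 9.48%. Their median log2 difference was 0.11, against 0.10 for all genes, and 19 of the 32 were above 0. The largest differences were those of *Rad51c*, which acts in homologous recombination (0.88, SE 0.337, limma, adjusted P = 0.425), and *Fan1*, a structure-specific nuclease (0.88, SE 0.774, adjusted P = 0.756). The smallest were those of *Faap24*, which pairs with FANCM (-0.77, SE 0.872, adjusted P = 0.817), and *Faap20*, which stabilises FANCA (-0.65, SE 0.461, limma, adjusted P = 0.690). None of these 4 passed the adjusted threshold in this fit. Another setting changed a call for *Faap20*, called lower with array weights (-1.23), and for *Rad51c*, called higher without control replicate 2 (1.12). Over the 32 genes 12 differed in sign between the sets, among them *Fan1* (1.56 in set 1 and -0.42 in set 2), *Faap24* (0.34 and -1.62) and *Faap20* (0.18 and -1.43), while *Rad51c* had 0.94 and 1.05.

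By role, the 6 core complex partners had a median log2 difference of -0.29, with 1 of 6 above 0. Within set 1 their median was -0.01 with 2 of 6 above 0, and within set 2 it was -0.61, with *Faap20* at -1.43, *Faap24* at -1.62 and *Faap100* at -0.75. The gene above 0 in the pooled data was *Ube2t*, the ubiquitin-conjugating enzyme that works with FANCL, at 0.15. The deubiquitinating pair *Usp1* and *Wdr48*, which take the ubiquitin off again, had 0.41 and 0.12, and both turned from below 0 in set 1 to above 0 in set 2. The 7 incision genes had a median of -0.28, the 4 translesion genes 0.03 and the 6 genes around BLM and ATR 0.09. In this last group the helicase gene *Blm* was at 5.37 ± 0.251 in control and 5.96 ± 0.378 log2 RPM in cryptorchid libraries, a log2 difference of 0.58 (limma, adjusted P = 0.483). Of the rest of that group, *Top3a* (-0.53), *Rmi1* (-0.21) and *Rmi2* (-0.38) were below 0, and *Atr* (0.39) and *Chek1* (0.63) above. All 7 homologous recombination genes listed had a difference above 0, where 56.7% of all genes did, and 0 of the 7 were called in this fit. Their median was 0.39 and their range 0.12 (*Brip1*) to 0.88 (*Rad51c*). Within set 1, 6 of the 7 were above 0, with *Brip1* at -0.23, and within set 2 all 7 were. *Brca1*, *Brca2* and *Palb2*, which act together in homologous recombination, had differences of 0.46, 0.22 and 0.36.

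**Figure D4:**
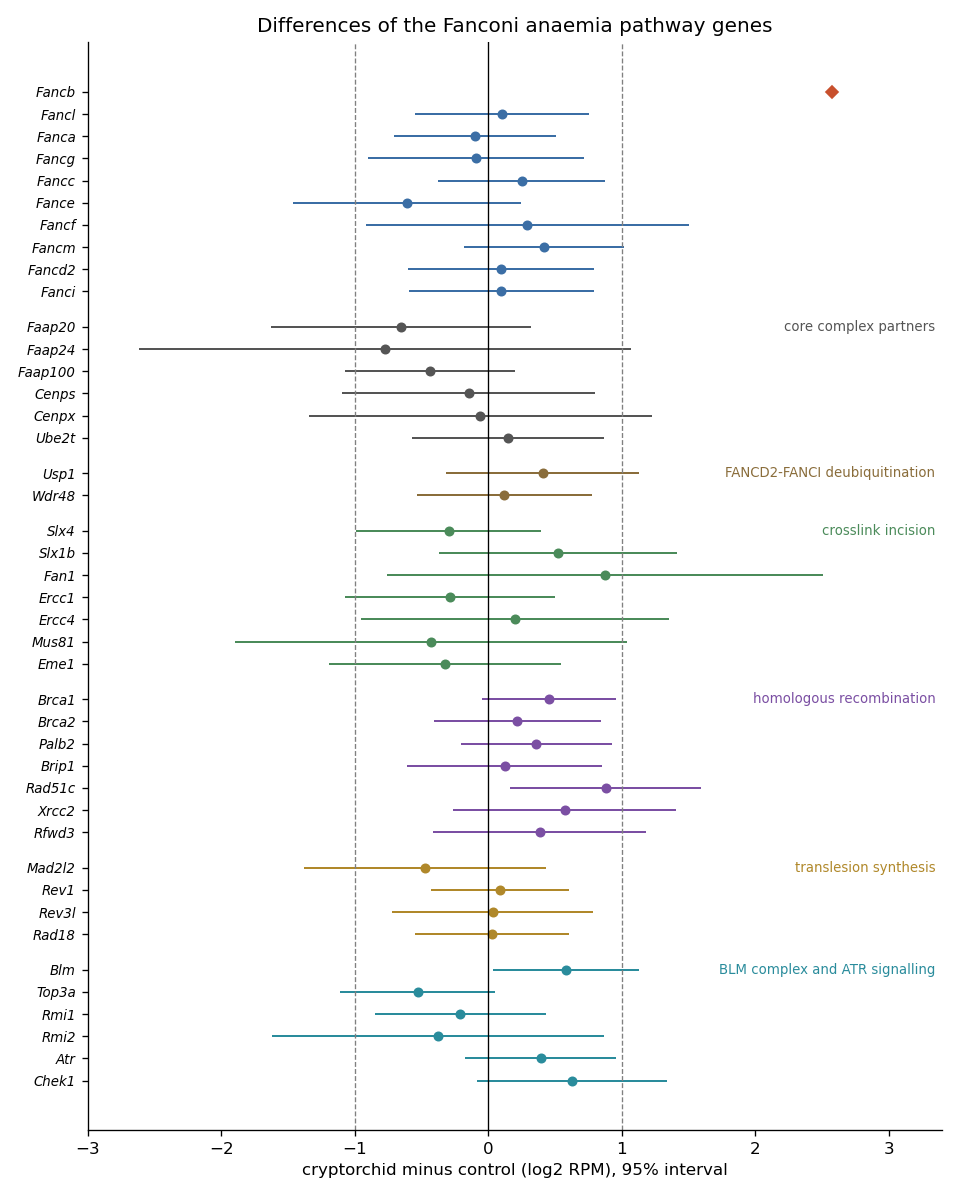
Log2 difference between cryptorchid and control libraries (x axis, points) with 95% intervals (lines) for the 9 other members and 32 further pathway genes, grouped by role, with dashed lines at a 2-fold change either way. *Fancb*, shown as a diamond without an interval since it was chosen for its difference, is at 2.58, and every other gene is between -0.77 and 0.88.

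Several pathway members are transcribed with the cell cycle, so cycle genes were set beside them. Of 12 S phase genes 0 were called, where 3.56% of all genes were called higher and 2.36% lower. Their median log2 difference was 0.15, and *Ccne2*, a cyclin of S phase entry, had the largest (0.83, limma, adjusted P = 0.463). Of 7 G2/M genes the kinase gene *Aurkb* was called lower (-1.19, limma, adjusted P = 0.248), where 2.36% of all genes were. *Plk1* had the next lowest difference (-0.82, limma, adjusted P = 0.487) and was not called. The list's median was -0.16, with 3 of the 7 above 0. The replication licensing genes *Mcm2* to *Mcm7* ranged from -0.16 to 0.35, and *Cdt1* (-0.50) and *Cdc6* (-0.40) were the lowest of the S phase list. The part of the cycle genes in the level of *Fancb* was not tested.

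Markers of further cell types were read in the same fit. Among 5 differentiation markers *Stra8* was called higher (log2 difference 1.09, limma, adjusted P = 0.273), where 3.56% of all genes were. *Kit* (0.45), *Sohlh1* (-0.65), *Sohlh2* (-0.31) and *Dmrtb1* (-0.76) were not called, and the list's median was -0.31. Of 6 spermatocyte markers 0 were called, where 3.56% of all genes were called higher and 2.36% lower. Of these 6, 4 were above 0, with a median of 0.17. They ran from -0.21 (*Piwil1*) to 1.03 (*Spo11*, limma, adjusted P = 0.559). Their list summed to 192 to 244 RPM in control and 193 to 342 RPM in cryptorchid libraries. In somatic lists, *Des* of 4 myoid markers (2.55, limma, adjusted P = 0.386) and *Cdh5* of 5 endothelial markers (2.01, limma, adjusted P = 0.359) were called higher. Over all genes 3.56% were. *Des* was without reads in 4 libraries and held at most 38. In the same lists 3 of 4 myoid and 4 of 5 endothelial markers were above 0, while *Myh11* (-1.14) and *Egfl7* (-0.25) were below. Of the tested Sertoli, Leydig, macrophage and lymphocyte markers 0 were called, against 3.56% of all genes higher and 2.36% lower. The summed levels of these lists overlapped between the groups, at 17.3 to 53.1 RPM in control and 13.4 to 47.4 RPM in cryptorchid libraries for Sertoli cells, 9.04 to 16.1 and 6.42 to 48.2 for Leydig cells, 1.78 to 15.6 and 0.928 to 14.5 for myoid cells, 24.7 to 43.2 and 29.3 to 59.0 for endothelial cells, 2.69 to 22.2 and 7.95 to 27.5 for macrophages, and 0.365 to 6.48 and 2.21 to 12.8 for lymphocytes. *Nkg7* had no reads in any of the 12 libraries. The part of these cells in the level of *Fancb* was not tested.

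*Fancb* starts 216 bases from *Mospd2*, which encodes a membrane protein of contact sites of the endoplasmic reticulum and runs the other way. The bases between the annotated starts are shown because any start-proximal sequence they hold is shared by both genes. They are given on the forward strand of chrX:164980376-164980591 in GRCm38.p6, 5′ to 3′ towards *Fancb*, with a CCAAT box (CCAAT) and a GC box (GGGCGG, here on the reverse strand) in capitals.

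Fancb and Mospd2 start region: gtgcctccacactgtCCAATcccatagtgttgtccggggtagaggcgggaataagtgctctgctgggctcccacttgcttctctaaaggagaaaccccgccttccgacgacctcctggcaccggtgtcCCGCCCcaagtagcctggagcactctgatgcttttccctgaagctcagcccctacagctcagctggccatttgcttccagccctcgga

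The stretch held 59.7% G and C and 8 CpG dinucleotides. The CCAAT match began 201 bases and the GC box match 88 bases before the start of *Fancb*. The letters searched for E2F (TTTNNCGC), ETS (CCGGAAGT), cyclic AMP response element (TGACGTCA), heat shock element (GAANNTTC or TTCNNGAA) and TATA box (TATAAA) motifs, on both strands, were not in this window. A match is a description of letters and not of a bound site.

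*Mospd2* was at 2.73, 4.80, 3.04, 2.75 and 2.91 log2 RPM in the control libraries. In the cryptorchid libraries it was at 3.78, 3.22, 2.74, 4.07, 2.62, 3.98 and 4.60, and the groups overlapped. Its mean went from 3.24 ± 0.876 (SD, n = 5) to 3.57 ± 0.735 (SD, n = 7), a log2 difference of 0.33 with a 95% interval of -0.71 to 1.36 (limma, adjusted P = 0.871). Within the sets its difference turned sign, from -0.27 in set 1 to 0.99 in set 2, and its difference from *Fancb* was not tested.

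**Figure D5:**
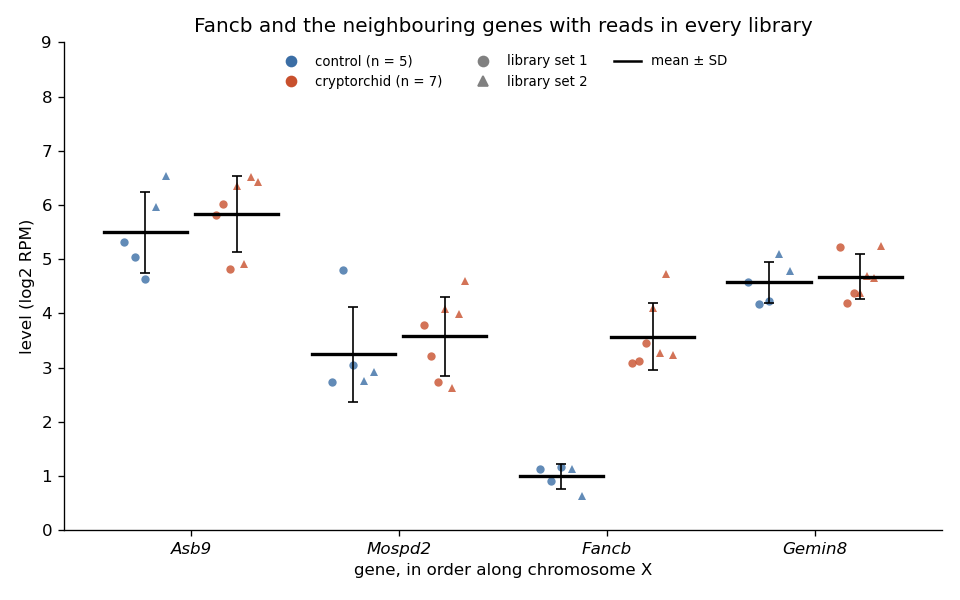
Level in log2 RPM (y axis) of *Fancb* and of the 3 neighbouring genes with reads in every library, in their order on chromosome X, with 1 point per library and bars for mean ± SD. *Mospd2*, which shares the start region, spans 2.73 to 4.80 in control and 2.62 to 4.60 log2 RPM in cryptorchid libraries.

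The other neighbours on chromosome X were farther off. *Asb9*, which encodes an ankyrin repeat and SOCS box protein, had a log2 difference of 0.34 (limma, adjusted P = 0.816), and *Gemin8*, of the complex that assembles spliceosomal particles, had 0.11 (limma, adjusted P = 0.934). *Asb11* had -0.44 and was without reads in 5 libraries, *Glra2* had 0.68 and was without reads in 9, and *Gm17604* had no reads in all 12 and was not tested. Of 709 X-linked genes tested, 27 were called higher (3.81%, against 3.56% of all genes) and 5 lower (0.705%, against 2.36%), and *Fancb* ranked 7 by its difference. The median X-linked log2 difference was 0.30, against 0.10 for all genes, and 4 X-linked genes (0.564%, against 0.555% of all genes) had every cryptorchid library above every control library. *Fancb* is counted among the 709 and among these 4, so its rank and its place in the 4 follow from its choice.

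RefSeq promoter windows around the start were matched by symbol for 9 of the 10 members. The GC box letters were in 6 of the 9, against 35.7% of 32851 mouse promoters, and the CCAAT letters in 6 of the 9, against 37.4%. The E2F letters were in 1 of 9, that of *Fancg* (5.17% of all), and those of the heat shock element in 1 of 9, that of *Fancm* (15.1%). The ETS, cyclic AMP response and TATA letters were in 0 of 9 (3.89%, 1.79% and 13.6% of all). The window of *Fancb* held 13 CpG dinucleotides, above *Fancl* with 3 and below all the others, which ran from 17 (*Fanci*) to 26 (*Fancm*). Of all promoters, 37.9% held at least as many as that of *Fancb*.

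Genes were ranked by how close their centred pattern over the 12 libraries was to that of *Fancb*, as the root mean square of the differences in log2 RPM. The 5 closest were *Vat1l* (0.558), a homologue of a vesicle amine transport protein, *Ephx2* (0.648), the soluble epoxide hydrolase, *Mrc1* (0.711), the mannose receptor of macrophages, *Ildr2* (0.714), an immunoglobulin-like receptor, and *Emp2* (0.718), an epithelial membrane protein. All 5 were higher in cryptorchid libraries, by 1.64 (*Ildr2*) to 2.28 (*Ephx2*) log2 units, as the measure favours. Among the other 9 members the closest was *Fancm* at 1.16 and the farthest *Fance* at 1.85, against a median of 1.55 over all genes. *Mospd2* was at 1.36.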

How the data were processed

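RNA was measured in 12 Smart-seq2 libraries, 5 control and 7 cryptorchid. The authors used Trim Galore 0.6.6 for trimming, HISAT2 2.1.0 for mapping to mm10 and SeqMonk for counting, and the deposited unit is log2 RPM, with FastQC 0.11.8 also listed in the submitters' processing notes. The deposited values are not read counts, so limma 3.58.1 in R 4.3.3 (lmFit, eBayes with trend) was used over 16932 genes, with Benjamini-Hochberg adjustment. Python 3.11.15, pandas 2.3.3, numpy 2.4.6 and matplotlib 3.10.9 did the rest.

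Reads per gene were recovered from the steps of the RPM values, where a library's lowest value stands for 0.9 reads. They cover counting error only, and PCR copies are not independent molecules. Pairs of replicates differed by more than sampling noise (chi-square per gene 12.9 to 254 over 31 pairs). The columns were assigned by name, and 0 belonged to no sample.

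The members, gene lists and tests were chosen with earlier results of these data known. Named genes were the 10 members, pathway genes called and the 2 largest and 2 smallest differences among them, the 3 nearest genes on each side of *Fancb*, and the 5 genes most like it; further genes were named after their values were seen. Lists covered 32 pathway genes (1 further gene is not reported here), S phase, G2/M, and markers of undifferentiated and differentiating spermatogonia, spermatocytes, spermatids, Sertoli, Leydig, myoid, macrophage, lymphocyte and endothelial cells. Exon lengths and positions are from GENCODE vM21 (GRCm38), and promoters from RefSeq (GRCm38.p6). The fit was tested on simulated data.

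Alternatives were median centring, quantile normalization, log2(RPM + 1), log2(RPM + 0.1), a common floor (-1.92 log2 RPM), differences of log2 mean RPM, no filter or one at log2 mean RPM above 1, array weights, voom on recovered reads, an exact two-sided rank sum test, the replicate number as a block, a term for the library set, each set alone, and each library left out.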

Additional observations from a re-analysis of the deposited data

Results flagged for a closer look

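Dixon's ratio was applied to 10 members and *Mospd2* in each group, 22 groups in all, of which chance alone would flag about 1 in 20. It marked cryptorchid replicate 2 for *Fancd2*, the lowest of its group at 5.61 log2 RPM with the next at 6.51. It also marked control replicate 2 for *Mospd2*, the highest of its group at 4.80 log2 RPM with the next at 3.04.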

How the results depend on the processing

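Over 27 alternatives the log2 difference of *Fancb* stayed between 2.11, at log2(RPM + 1), and 2.95, within set 2. Under the 24 with a test, 0 of the other 9 members were called, and their lowest adjusted P-value was 0.113 (*Fance* with array weights, log2 difference -0.96). Unadjusted P-values fell under 0.05 for that value, for *Fancm* by the exact rank sum test (P = 0.048) and for *Fancm* with the replicate block (P = 0.030).

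Genes called over all genes numbered 1002, 1585 with array weights and 1678 with the replicate block; genes with an adjusted P-value under 0.05 were 2, 476 and 949, and 46 with a term for the library set, and the exact rank sum test gave 0 (854 called). The cause was not tested. Pathway genes called were 0, and 1 with array weights (*Faap20*, -1.23), 1 with the replicate block (*Rad51c*, adjusted P = 0.021 by limma) and 1 without control replicate 2 (*Rad51c*, 1.12), so that leaving out single libraries gave 0 to 1.

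Small differences changed sign. *Fanca* was 0.015 and *Fancg* 0.18 with the replicate block. Leaving out single libraries gave -0.25 to 0.14 for *Fanca*, -0.39 to 0.11 for *Fancg*, -0.17 to 0.30 for *Fancd2*, -0.071 to 0.39 for *Fanci* and -0.0073 to 0.23 for *Fancl*.

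Same-numbered libraries correlated at 0.0488 to 0.411, and with the lowest this near 0 the numbers were not taken as pairs, although 4 of 5 controls correlated best with their own number. The control libraries hold 7 to 54 reads of *Fancb*, which limits the precision of its fold.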
